A study of Danio rerio with 4 samples.

Results

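Gene expression in whole eyes of zebrafish (Danio rerio) heterozygous at both eys and lrp5 (eys+/-; lrp5+/-, called double heterozygotes here) was compared with that in wildtype eyes. The genes described are those that differed by 2-fold or more between these 2 arrays, which is a difference of 1 or more on the log2 scale. They number 179 of the 19260 genes named on the array, or 1.72% of the 10434 genes that were measured in this comparison. For each gene the probe set of highest mean level was taken, and the gene counted as measured when the higher of the 2 arrays reached 6.57, the median of all named values. The eyes came from fish of mixed sex at 3.5 months after fertilisation, kept at 14 hours of light and 10 hours of dark. There was 1 Affymetrix array for each genotype, namely eys+/-; lrp5+/-, eys-/-, lrp5-/- and wildtype, so there are no replicates, no spread between fish can be estimated and no p-value is given. The number of fish per array, the eys and lrp5 alleles and the time of day at which eyes were taken are not given in the sources used here. A difference in a whole eye may come from more or fewer cells of a type or from more or less RNA per cell, and these cannot be told apart.

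The gene eys encodes a large secreted protein of the matrix around photoreceptors, and its loss causes a form of retinitis pigmentosa in humans. The gene lrp5 encodes a co-receptor for Wnt ligands and for Norrin, and its mutation in humans disturbs the growth of retinal vessels. Zebrafish eyes also hold a circadian clock of their own. In it Clock and Bmal proteins switch on the Period, Cryptochrome and Rev-erb genes and the PAR bZIP output factors, whose products feed back on the activators, so that activator and repressor genes peak at opposite times of day.

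The tissue was checked first against markers. Of 37 markers of retinal cells, pigment epithelium, lens and surface epithelium on the array, 36 reached the measured level in at least 1 of the 2 arrays and 0 differed by 2-fold. Rod and cone transducin (gnat1 and gnat2) read 12.46 and 12.56 in the double heterozygote, against 12.56 and 12.44 in wildtype. All 5 markers of brain beyond the eye stayed below the measured level, between 4.03 and 5.95 in the double heterozygote and between 3.80 and 5.80 in wildtype. Of the 63 markers of all cell types, 1 differed by 2-fold, the myelin gene mbpa, described below. No probe set carries the name eys in the annotation used. The 1 probe set of lrp5 read 6.92 in the double heterozygote, 7.27 in eys-/-, 7.17 in lrp5-/- and 7.39 in wildtype, a difference of -0.47 in the double heterozygote. Where this probe set lies on the gene with respect to the lesion is unknown, so the labels could not be checked by it.

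Of the measured genes, 128 were higher in the double heterozygote (1.23% of those measured) and 51 were lower (0.489%). The median difference over all measured genes was 0.0016 and their robust SD was 0.23. The largest differences were 7.85-fold higher for fkbp5 and 6.72-fold lower for ndrg1b, and 4-fold was reached by 12 of the higher and 5 of the lower genes. Just inside the threshold, 16 higher and 7 lower genes differed by less than 1.05, from six7 at 1.01 and mybl1 at -1.0002. Just outside it, 19 genes lay at 0.95 or more, among them stk17a at 0.9996, and 11 lay at -0.95 or less, among them gadd45ba at -0.98. The lower of the 2 readings lay below the measured level for 59 of the 179 genes. For mhc2daa, cdkn1a and bmal1a it lay below the median of its whole array, so the sizes of their differences are uncertain.

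**Figure D1:**
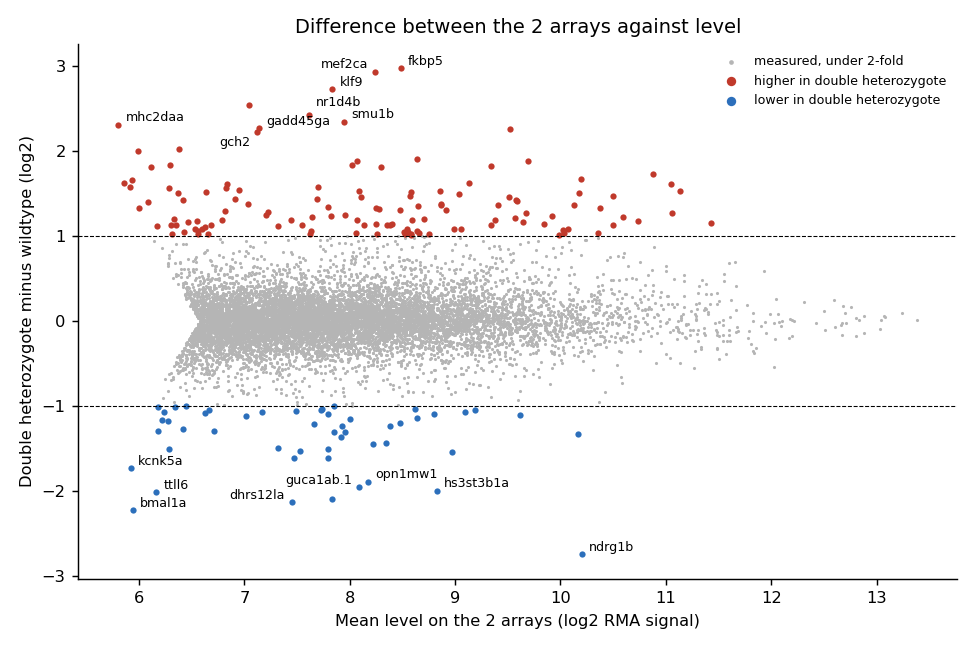
Difference between the arrays (double heterozygote minus wildtype, log2) against the mean level on both (log2 RMA signal), 1 point per measured gene, with dashed lines at 2-fold. The 128 higher and 51 lower genes lie at low to high levels but not among the brightest genes, and ndrg1b at -2.75 stands apart on the lower side.

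Of the 179 genes, 149 carry names that could be placed in 12 groups by known function, a grouping made after their values were seen. The remaining 30, of which 23 were higher and 7 lower, have clone-style names, differed by -2.10 to 2.54 and are not described further. The circadian clock group held 18 genes, 10 higher and 8 lower, so 55.6% were higher beside 71.5% of all 179 genes. All 6 genes of the Mef2, activity-induced and growth arrest group and all 5 of the glucocorticoid and steroid group were higher. That stands beside 71.5% of all 179 genes, and these groups are small and hold only genes already past 2-fold. Vision genes divided into 10 higher and 5 lower, and genes of matrix, adhesion and cornea into 13 higher and 4 lower. The shares that were higher, 66.7% and 76.5%, lay near the 71.5% of all 179 genes.

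**Figure D2:**
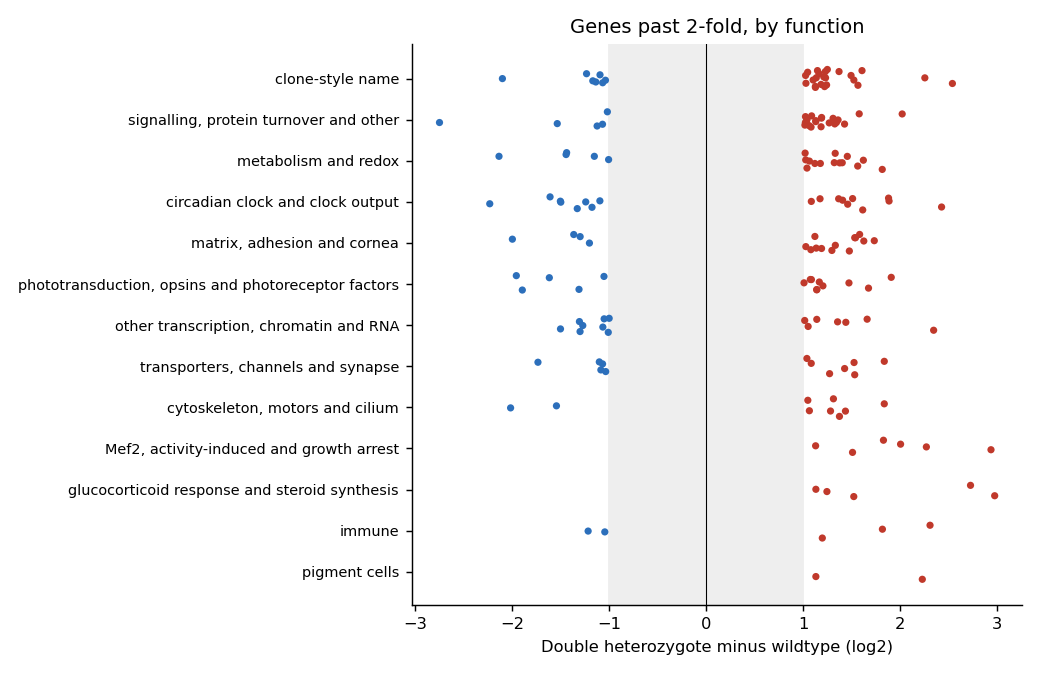
The 179 genes past 2-fold by function, 1 point per gene, with the difference (double heterozygote minus wildtype, log2) on the horizontal axis and the range under 2-fold shaded. Clock genes lie on both sides, with 10 higher and 8 lower. The small glucocorticoid, Mef2 and pigment cell groups, of 5, 6 and 2 genes, lie on the higher side alone. Of all 179 genes 71.5% were higher.

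Clock genes lay on both sides of the comparison. The 10 higher genes encode repressors of the loop and output factors. The Rev-erb family repressor nr1d4b read 8.82 in the double heterozygote, 5.42 in eys-/-, 7.85 in lrp5-/- and 6.40 in wildtype, a difference of 2.43. Its paralogue nr1d4a read 9.01 in the double heterozygote and 7.13 in wildtype (1.88). The period gene per1a, a core repressor of the loop, read 10.63 in the double heterozygote, 7.82 in eys-/-, 9.77 in lrp5-/- and 8.75 in wildtype (1.88). In all 3 genes the double heterozygote was highest and the eys-/- array lowest. The PAR bZIP activators dbpb and dbpa were higher by 1.61 and 1.08. The repressors of Clock and Bmal bhlhe41, ciarta, ciartb and cipca were higher by 1.51, 1.46, 1.41 and 1.36, and the cryptochrome cry2 by 1.17. All 10 of these higher genes shared 1 order of levels, with the double heterozygote above lrp5-/-, then wildtype, then eys-/-. Whether this order goes with genotype or with the time of day at which eyes were taken was not tested. That time is not given, and with 1 array per genotype the 2 cannot be told apart.

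Of the 8 lower genes, 4 are on the list of activators, and the others are a pair of bZIP repressors and a pair of cryptochromes. The gene bmal1a, which encodes the partner of Clock, read 4.83 in the double heterozygote, 7.02 in eys-/-, 5.61 in lrp5-/- and 7.06 in wildtype, a difference of -2.23. Its paralogue bmal1b read 6.66 in the double heterozygote, 8.27 in eys-/-, 7.30 in lrp5-/- and 8.27 in wildtype (-1.61). For both genes the eys-/- and wildtype arrays lay close together and the lrp5-/- array between them and the double heterozygote. The orphan receptor rorcb, of the family that activates Bmal genes, was lower by a difference of -1.50 and npas2, a relative of Clock, by -1.10. The bZIP repressors nfil3-5 and nfil3, which oppose the PAR bZIP factors, differed by -1.50 and -1.18. The cryptochromes cry3a and cry3b differed by -1.33 and -1.24, opposite in direction to cry2. In 6 of these 8 genes the double heterozygote was lowest and lrp5-/- next; the exceptions were nfil3 and nfil3-5, where eys-/- came next.

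**Figure D3:**
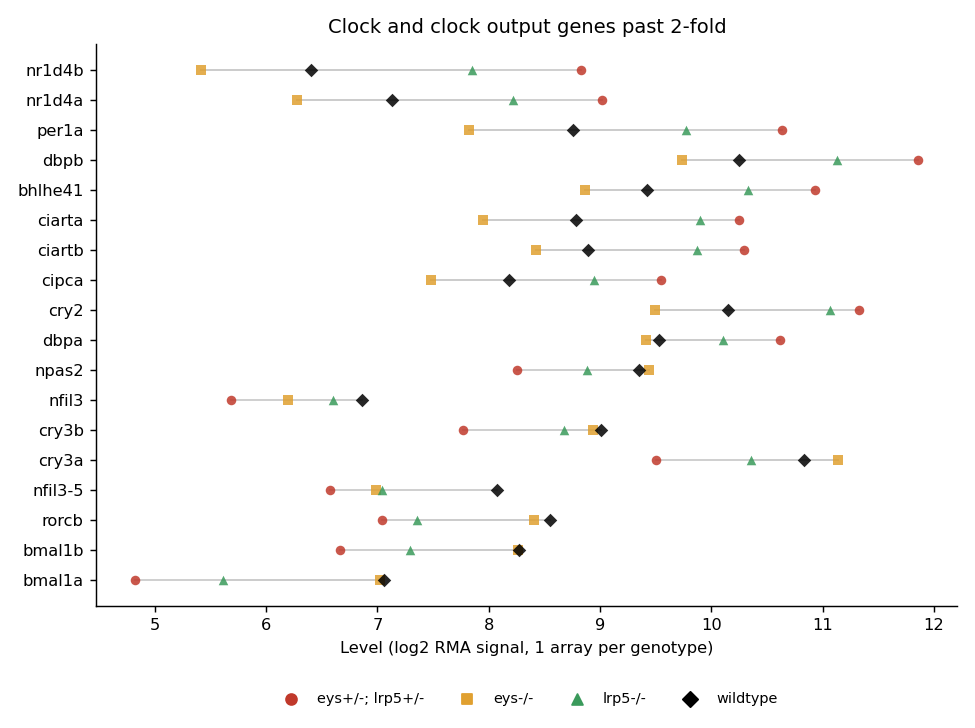
Levels of the 18 clock and clock output genes past 2-fold on all 4 arrays (log2 RMA signal, 1 array per genotype), ordered by the difference between double heterozygote and wildtype. In the upper 10 genes the points run from the double heterozygote through lrp5-/- and wildtype to eys-/-, and in the lower 8 the double heterozygote is lowest.

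Most clock genes listed for this comparison were under 2-fold. Of 9 measured activators, 0 were higher, 4 were lower and 5 neither, with a median of -0.89 beside 0.0016 over all measured genes; clocka differed by -0.89, rorab by -0.63, clockb by -0.58 and rorb by 0.18. The list of Period and Cryptochrome genes held 12 measured members, with 2 higher, 2 lower and a median of -0.01. In that list per1b differed by 0.77 and cry4 by -0.81, while per2 and per3, which read 10.11 and 11.25 in the double heterozygote, differed by 0.08 and -0.10. Of 19 measured Rev-erb and PAR bZIP output genes, 7 were higher and 2 lower, with a median of 0.39; tefb differed by 0.91, nr1d1 by 0.59 and nr1d2a by 0.39. None of 8 measured genes of melatonin synthesis and signalling was past 2-fold (median 0.11): the synthesis enzymes aanat2 and asmt2 differed by -0.04 and -0.57. Of all measured genes 1.23% were higher and 0.489% lower, and these lists were chosen with earlier results of these data known. The group of 10 higher and 8 lower clock genes holds only genes already past 2-fold, so no such share can be given for it.

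Genes known as glucocorticoid targets held the largest difference on the higher side. The gene fkbp5, a co-chaperone that damps the glucocorticoid receptor and is induced by it, read 9.97 in the double heterozygote, 9.92 in eys-/-, 7.90 in lrp5-/- and 6.996 in wildtype, a difference of 2.97. The double heterozygote and eys-/- arrays lay together, well above the others. The Kruppel-like factor klf9 read 9.20 in the double heterozygote, 7.75 in eys-/-, 7.25 in lrp5-/- and 6.47 in wildtype (2.72). The zinc finger repressors zbtb16a and zbtb16b, the zebrafish counterparts of a glucocorticoid-induced human gene, were higher by 1.24 and 1.13. The gene cyp11c1, which encodes the 11-beta hydroxylase of cortisol synthesis, read 7.39 in the double heterozygote and 5.87 in wildtype (1.52). In the list of the receptor and its targets, 5 of 31 measured genes were higher and 0 lower, with a median of 0.15. Over all measured genes 1.23% were higher and 0.489% lower, and the list was chosen with earlier results of these data known. The gene per1a is among the 5 and also in the clock group. The receptor gene nr3c1 differed by -0.32, and the often-used targets tsc22d3 and sgk1 by -0.02 and 0.24. The mineralocorticoid receptor gene nr3c2 differed by -0.63 and the glutamine synthetase gene glulb by 0.80.

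The muscle and neuronal transcription factor mef2ca had the next largest difference, at 9.71 in the double heterozygote, 7.07 in eys-/-, 8.58 in lrp5-/- and 6.77 in wildtype, a difference of 2.93. Its paralogue mef2cb read 10.25 in the double heterozygote and 8.43 in wildtype (1.83), while the family members mef2aa and mef2d differed by 0.27 and 0.10. Beside 1.23% higher and 0.489% lower of all measured genes, 2 of 4 measured Mef2 genes were thus higher and 0 lower. Genes of stress and neuronal activity stood beside them. The stress sensor gadd45ga read 8.27 in the double heterozygote, 6.40 in eys-/-, 8.48 in lrp5-/- and 6.004 in wildtype (2.27), and the activity-dependent factor npas4a read 7.12 in the double heterozygote, 5.62 in eys-/-, 7.19 in lrp5-/- and 5.61 in wildtype (1.51). In both the lrp5-/- array read slightly above the double heterozygote. The orphan receptor nr4a1 was higher by 1.13 and the cell cycle inhibitor cdkn1a by 2.003. Of 35 measured immediate early genes, 5 were higher and 0 lower, again beside 1.23% and 0.489% of all measured genes. Their median was 0.18, and klf9 and per1a are 2 of the 5. The Fos genes fosab and fosl2 differed by 0.34 and 0.23, jun by 0.19 and egr1 by 0.84. In the other direction gadd45ba differed by -0.98, ier5 by -0.61 and dusp1 by -0.57. Of 19 measured growth arrest and p53 target genes, gadd45ga and cdkn1a were the 2 that were higher and 0 were lower (median -0.0003). The same shares of all measured genes, 1.23% and 0.489%, stand beside this. In this list mdm2 differed by 0.10, gadd45ba by -0.98 and bbc3 by -0.56.

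Among vision genes the highest was nr2e3, which encodes a nuclear receptor that sets rod identity. It read 9.59 in the double heterozygote, 8.30 in eys-/-, 8.67 in lrp5-/- and 7.69 in wildtype, a difference of 1.91. The inhibitory subunit of rod phosphodiesterase, pde6ga, read 11.03 in the double heterozygote, 9.98 in eys-/-, 10.06 in lrp5-/- and 9.36 in wildtype (1.67). The cone channel subunit cnga3a was higher by 1.07, and the cone fate factor six7 by 1.01, just past the threshold. The gene ankrd33aa, related to a mouse repressor of photoreceptor genes, was higher by 1.17 and the non-visual opsin tmtops2a by 1.08. On the lower side were the green cone opsin opn1mw1 at -1.90, the non-visual opsin opn3 at -1.31 and the retinal homeobox gene rx1 at -1.05. Against this, 26 of 29 measured rod genes and 31 of 38 measured cone genes were under 2-fold, with medians of -0.13 and 0.04. Among the rod genes pde6gb differed by 0.02. Past 2-fold in either direction were 1.72% of all measured genes. Of 17 measured photoreceptor fate factors 2 were higher and 1 lower (median -0.22). There nrl differed by -0.22, crx by 0.14 and rx2 by -0.89.

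The guanylate cyclase activating proteins, calcium sensors that restore cyclic GMP after light, gave 5 of these vision genes. The gene guca1aa read 11.24 in the double heterozygote, 8.84 in eys-/-, 11.00 in lrp5-/- and 9.77 in wildtype (1.47), and guca1ab.2, guca1d and guca1g were higher by 1.203, 1.14 and 1.14. The neighbouring gene guca1ab.1 went the other way. It read 7.11 in the double heterozygote, 9.53 in eys-/-, 7.86 in lrp5-/- and 9.07 in wildtype (-1.96). On the eys-/- array guca1ab.1 was at its highest and guca1ab.2, at 7.37, at its lowest. These genes have near relatives whose RNA may reach the same probes, so the values are uncertain.

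Green opsins are encoded by a cluster of near-identical genes, with the same uncertainty. In it opn1mw1 read 7.22 in the double heterozygote, 8.03 in eys-/-, 8.27 in lrp5-/- and 9.12 in wildtype, while opn1mw3 and opn1mw4 differed by -0.73 and -0.52. Among measured genes opn1mw1 is the next neighbour of fkbp5 along the chromosome, and the pair differed in opposite directions. The microRNA gene mir726, which lies between the blue opsin gene opn1sw2 and the red opsin gene opn1lw1, read 6.98 in the double heterozygote, 8.57 in eys-/-, 7.59 in lrp5-/- and 8.60 in wildtype (-1.62). Its neighbours opn1sw2 and opn1lw1 differed by -0.11 and 0.19.

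**Figure D4:**
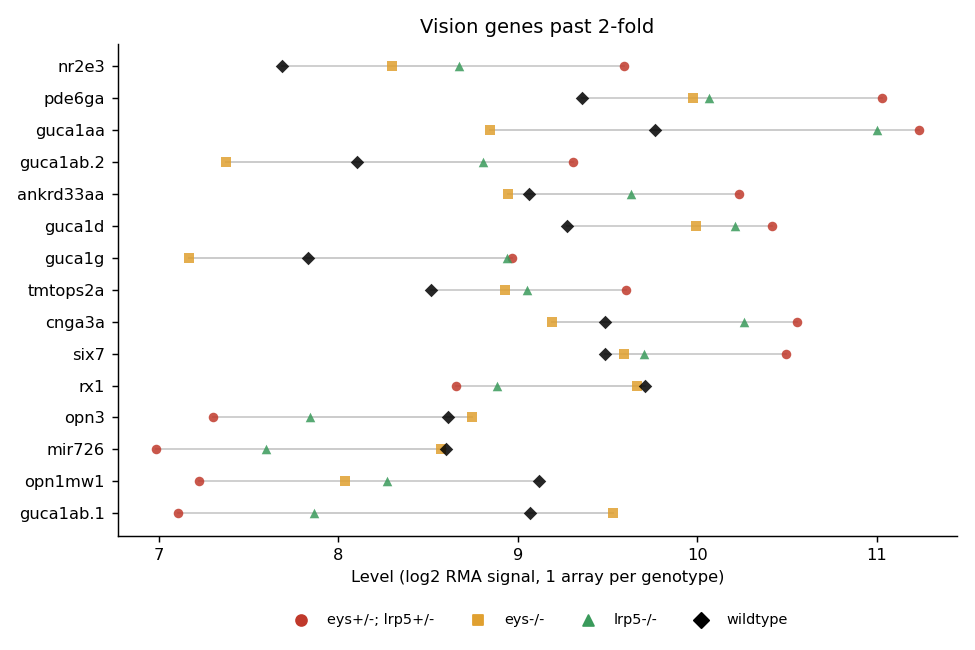
Levels of the 15 vision genes past 2-fold on all 4 arrays (log2 RMA signal, 1 array per genotype), ordered by the difference between double heterozygote and wildtype. The eys-/- array is lowest for guca1aa, guca1ab.2, guca1g, cnga3a and ankrd33aa and highest for guca1ab.1 and opn3.

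Genes that work with lrp5 or eys were looked at as lists. Of 34 measured genes of Norrin and Wnt signalling and vitreoretinopathy, 0 were past 2-fold (median -0.03). The list held 80 genes, of which 70 are named on the array, and the others of these 70 lay below the measured level. Neither ndp, the Norrin gene, nor fzd4 is among the 34, so nothing is said of them here. Farthest out among the 34 were gsk3bb at 0.64, fzd10 at 0.62 and dvl2 at 0.58, and on the lower side the Wnt antagonist sost at -0.55. Of 23 measured genes of photoreceptor matrix, Crumbs complex and dystroglycan, 0 were past it (median 0.08): the polarity genes pals1b and crb1 differed by 0.64 and 0.61, the matrix retinoid carrier rbp3 by -0.55 and dystroglycan dag1 by -0.01. In the RefSeq gene table, 8 of the 179 genes lie on the chromosome of eys and 10 on that of lrp5, which are 2.02% and 3.32% of the measured genes there, beside 1.72% of all measured genes.

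Of the 17 genes of cornea, matrix and cell adhesion 13 were higher, a share of 76.5%, beside 71.5% of all 179 genes. The corneal keratan sulphate proteoglycan kera read 11.74 in the double heterozygote, 10.39 in eys-/-, 10.69 in lrp5-/- and 10.01 in wildtype (1.73). The collagen crosslinking enzyme loxl2a was higher by 1.62, the desmosomal cadherins dsg2.1 and dsc2l by 1.58 and 1.33, and the epithelial laminin chain lamb3 by 1.54. The giant cadherin FAT4 was higher by 1.53, and slc4a11, a transporter mutated in human corneal dystrophy, by 1.48. Smaller differences were those of the hyaluronan receptor cd44a at 1.295, the matrix protein abi3bpb at 1.19, papss2a, which makes the sulphate donor, at 1.13, thrombospondin thbs2b at 1.12, biglycan bgna at 1.08 and angptl7 at 1.03. In this group the wildtype array was the lowest of the 4 for kera, loxl2a, dsg2.1, lamb3, dsc2l, cd44a, bgna, papss2a and angptl7. In the list of corneal and scleral proteoglycans 2 of 9 measured genes were higher and 0 lower, beside 1.23% and 0.489% of all measured genes. The median of this list was 0.37, with lum at 0.49 and prelp at 0.47.

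Sulphation and lysosomal enzymes were among the lower genes of this group. The heparan sulphate 3-O-sulphotransferase hs3st3b1a read 7.83 in the double heterozygote, 9.29 in eys-/-, 8.52 in lrp5-/- and 9.83 in wildtype (-1.998). It was the 1 gene past 2-fold among 21 measured genes of heparan sulphate modification, where the epimerase glceb differed by 0.77 and hs3st3l by -0.66. The chondroitin sulphotransferase chst12b.1 differed by -1.30 and the lysosomal glucuronidase gusb by -1.20. The endothelial matrix gene mmrn2a read 7.24 in the double heterozygote, 8.43 in eys-/-, 7.55 in lrp5-/- and 8.60 in wildtype (-1.37). It was the 1 lower gene of 29 measured endothelial genes, of which 0 were higher (median -0.15); kdr differed by -0.57 and cdh5, a defining junction gene, read 8.89 in the double heterozygote and 9.01 in wildtype.

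Pigment cells gave a pair of higher genes. The GTP cyclohydrolase gch2, needed for the pteridine pigments of zebrafish, read 8.24 in the double heterozygote, 6.51 in eys-/-, 7.99 in lrp5-/- and 6.01 in wildtype (2.23). The purine nucleoside phosphorylase pnp4a, a gene of the reflecting iridophores, was higher by 1.13. Of 23 measured pigment genes these 2 were past 2-fold (median 0.20), beside 1.72% of all measured genes. The melanin genes slc24a5, tyrp1b and gpr143 differed by 0.66, 0.55 and 0.52. In the other direction impdh1b, the farthest out under 2-fold, differed by -0.88 and spra by -0.34.

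In metabolism 14 genes were higher and 5 lower, a share of 73.7% higher beside 71.5% of all 179 genes. The gene pfkfb4b, whose product sets the glycolytic activator fructose 2,6-bisphosphate, read 9.20 in the double heterozygote, 8.88 in eys-/-, 7.998 in lrp5-/- and 7.39 in wildtype (1.81). The insulin receptor substrate irs2a read 9.94 in the double heterozygote, 9.51 in eys-/-, 8.33 in lrp5-/- and 8.32 in wildtype (1.62). The lipase lipib read 9.55 in the double heterozygote, 9.36 in eys-/-, 8.71 in lrp5-/- and 8.18 in wildtype (1.38). In these genes, as for fkbp5, eys-/- was the next highest array. Lipid genes on the higher side were the apolipoprotein apof at 1.56, the lysosomal phospholipase pla2g15 at 1.45, the fatty acid receptor cd36 at 1.18, the sphingolipid synthesis gene sptlc2b at 1.04 and abhd3 at 1.03. The haem scavenger hpxb was higher by 1.32, the glutaminase gls2b by 1.33, the dehydrogenase dhrs13a.2 by 1.40 and the retinoic acid hydroxylase cyp26c1 by 1.12. The enzyme genes pmm1, of mannose metabolism, and sdsl were higher by 1.06 and 1.02.

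The lower genes of metabolism were mostly redox enzymes. The short-chain dehydrogenase dhrs12la read 6.39 in the double heterozygote, 6.58 in eys-/-, 6.97 in lrp5-/- and 8.52 in wildtype (-2.14), so that wildtype alone was high. The methionine sulphoxide reductase msrb1a and the thiol oxidoreductase tmx3a each differed by -1.44, the haem-binding family gene soul5 by -1.15 and the biliverdin reductase blvra by -1.01. Another probe set of tmx3a, at 5.08 in the double heterozygote and 5.12 in wildtype, lay below the measured level and differed by -0.04.

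Transporters and neuronal genes divided as well. On the higher side were the monocarboxylate transporter family gene slc16a12b at 1.84, the sodium, potassium and calcium exchanger slc24a4b at 1.53, the glutamate transporter slc1a2a at 1.52 and the organic anion transporter slc22a6l at 1.43. The calcium sensor ncaldb was higher by 1.27, the presynaptic scaffold pcloa by 1.08 and the pyrophosphate transporter ankha by 1.04. On the lower side the tandem-pore potassium channel kcnk5a read 5.05 in the double heterozygote, 7.43 in eys-/-, 5.11 in lrp5-/- and 6.79 in wildtype (-1.73). It was the 1 gene past 2-fold among 42 measured potassium channel genes, whose median was 0.12. The adenosine receptor adora2aa differed by -1.09, the adhesion receptor adgrb2 by -1.07 and kctd12b, an auxiliary subunit of GABA-B receptors, by -1.04. A further probe set of kctd12b that reached the measured level was under 2-fold, at -0.78. The myelin basic protein gene mbpa read 9.07 in the double heterozygote, 8.58 in eys-/-, 9.44 in lrp5-/- and 10.17 in wildtype (-1.10). It was the 1 gene past 2-fold among 9 measured myelin genes, and its paralogue mbpb differed by -0.07.

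Cytoskeletal genes on the higher side were the mitochondrial myosin myo19 at 1.84, the microtubule-binding nav2b at 1.43, arhgap36 at 1.37, the nuclear envelope linker sun2 at 1.31, the class III myosin myo3b at 1.28 and the tubulins tubb5 and tubb4bl at 1.06 and 1.05. The tubulins are uncertain because RNA of other family members may reach their probes. The tubulin polyglutamylase ttll6 read 5.16 in the double heterozygote, 7.42 in eys-/-, 6.23 in lrp5-/- and 7.17 in wildtype (-2.02), and the smoothelin gene smtnb, of smooth muscle actin filaments, differed by -1.54. In the list of tubulin ligases and cilium genes ttll6 was the 1 of 37 measured genes past 2-fold.

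Other transcription and RNA genes comprised 7 higher and 8 lower. The splicing factor smu1b read 9.11 in the double heterozygote, 6.12 in eys-/-, 8.09 in lrp5-/- and 6.77 in wildtype (2.34). The zinc finger gene znfl1g was higher by 1.66, the nuclear receptor coactivator ncoa7a by 1.44, hif1al, listed also as Hif-3alpha, by 1.35, the orphan receptor esrrgb by 1.14, and the repressors zbtb7a and zbtb18 by 1.05 and 1.02. Lower were the cohesin subunit smc1a at -1.50, the orphan receptor nr2f6b at -1.31, phf20a at -1.30, foxp3a at -1.27, tgif1 at -1.07, naf1 at -1.05, and the Myc and Myb family genes mycla and mybl1 at -1.01 and -1.0002.

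Farthest out on the lower side was ndrg1b, of the N-myc downstream-regulated family, whose human relative responds to hypoxia. It read 8.83 in the double heterozygote, 10.53 in eys-/-, 9.95 in lrp5-/- and 11.58 in wildtype (-2.75), so that all 3 mutant arrays lay below wildtype. In the list of hypoxia and angiogenic factors pfkfb4b was the 1 higher and ndrg1b the 1 lower gene of 28 measured, a list that does not hold hif1al; egln1a and p4ha1b differed by -0.85 and -0.83 and vegfaa by -0.41. Of the immune genes, the MHC class II gene mhc2daa read 6.96 in the double heterozygote, 3.24 in eys-/-, 6.20 in lrp5-/- and 4.65 in wildtype (2.31), uncertain also because RNA of related genes may reach its probes. It was the 1 gene past 2-fold among 8 measured genes of antigen presentation (median 0.055). There cd74a differed by 0.20, cd74b by -0.05 and b2m by -0.27. The chemokine ccl19a.2 read 7.02 in the double heterozygote, 4.24 in eys-/-, 4.74 in lrp5-/- and 5.21 in wildtype (1.82), high in the double heterozygote alone. The adaptor dok1a was higher by 1.196, and the chemokine ccl25a and the adaptor samsn1a differed by -1.05 and -1.22.

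The remaining named genes belong to signalling, protein turnover and mixed functions, with 21 higher and 5 lower, ndrg1b among the lower ones. The share that was higher was 80.8%, beside 71.5% of all 179 genes. Highest were the reticulon rtn2b, of the endoplasmic reticulum, at 2.02, the relaxin family hormone gene insl3 at 1.58, the membrane protein itm2cb at 1.43, the kinase dyrk4 at 1.36, fam110a at 1.34, the annexin anxa4 at 1.32 and mmd2a at 1.31. Genes of the ubiquitin system were zfand5a at 1.27, rnf34b at 1.13, ubap1la at 1.13, zfand5b at 1.04 and ubtd1a at 1.03. The genes wbp1lb, bnipl, nim1kb, bokb, fam210ab, abcf2a, LRTM1, osgn1 and camkk1a lay between 1.02 and 1.19. Besides ndrg1b the lower genes were paqr3b at -1.54, parp6b at -1.12, stxbp6l at -1.07 and plcxd2 at -1.02. A further probe set of paqr3b read 5.44 on both arrays, below the measured level. Further probe sets of anxa4 and zfand5b that reached the measured level were under 2-fold, at 0.40 and 0.64.

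In the steps taken after RMA, the eys-/- and lrp5-/- arrays entered the choice of these genes only through 2 quantities. These were the mean level that picked each probe set and the measured level, both taken over all 4 arrays. RMA itself makes the distributions of arrays equal, so values of different arrays are not fully independent. The difference between eys-/- and lrp5-/- shares no array with the comparison of double heterozygote and wildtype. Of the 128 higher genes, 111 (86.7%) read higher in lrp5-/- than in eys-/-, with a median difference of 0.57, beside 51.1% of all measured genes and a median of 0.0067. Of the 51 lower genes, 37 (72.5%) read lower in lrp5-/- than in eys-/-, with a median of -0.48. Among the higher genes, all 10 clock genes, all 10 vision genes and all 7 cytoskeletal genes read higher in lrp5-/-. The same held for all 7 other transcription and RNA genes and all 6 of the Mef2 and activity group. So did 19 of 21 signalling and other genes, 11 of 13 matrix genes and 20 of 23 genes with clone-style names. Counts were 10 of 14 for metabolic, 5 of 7 for transporter and neuronal and 3 of 5 for glucocorticoid and steroid genes. All these stand beside 86.7% of all 128 higher genes. For immune and pigment cell genes it was 2 of 3 and 1 of 2. The exceptions held fkbp5 at -2.02, irs2a at -1.18, pfkfb4b at -0.88, lipib at -0.65, klf9 at -0.50 and bgna at -0.50. Of the 14 exceptions among the lower genes paqr3b lay farthest out, at 4.51. As genes of 1 array are not independent, these counts describe the 4 arrays and are not a test of the genotypes.

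**Figure D5:**
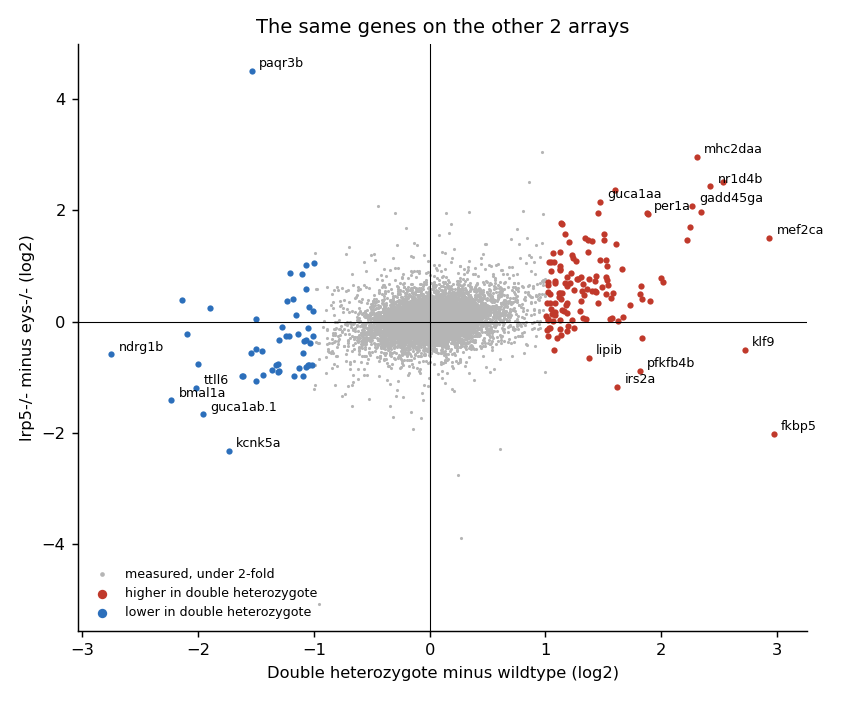
Difference between lrp5-/- and eys-/- (log2, vertical) against that between double heterozygote and wildtype (log2, horizontal), 1 point per measured gene. Of the higher genes 111 of 128 lie above 0 on the vertical axis and of the lower genes 37 of 51 lie below it, with fkbp5, irs2a, pfkfb4b and paqr3b away from that pattern.

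The double heterozygote was the highest of the 4 arrays for 120 of the 128 higher genes and the lowest for 47 of the 51 lower genes, an order that the choice of genes fixes in part. Wildtype was the lowest of the 4 for 72 of the higher genes and eys-/- for 56. When the double heterozygote was set against the average of eys-/-, lrp5-/- and wildtype instead of wildtype alone, 7 of the 179 genes, all lower ones, did not reach the measured level and had no value. Of the 172 that did, 92 were still past 2-fold, 76 of them higher and 16 lower. Without the filter on level, bmal1a and kcnk5a, which are 2 of those 7, differed by -1.74 and -1.39, and the other 5 were under 2-fold. The 92 include 9 of the 10 higher clock genes, 4 of the 6 lower clock genes with a value, 4 of the 5 glucocorticoid and steroid genes and 8 of the 17 genes of matrix, adhesion and cornea. In that comparison fkbp5 differed by 1.70, mef2ca by 2.23, klf9 by 2.04, nr1d4b by 2.27 and ndrg1b by -1.86, while npas4a (0.98), dhrs12la (-0.97) and mmrn2a (-0.96) were under 2-fold.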

How the data were processed

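Total RNA of whole eyes was hybridised as biotin-labelled single-stranded cDNA to Affymetrix arrays, per the labels' protocols. The authors deposited 75212 probe sets on a log2 scale, made with RMA and Transcriptome Analysis Console 4.0, per the submitters' processing notes; RMA makes the distributions of arrays equal, so a shift of most genes in 1 direction would not be seen. Medians of the 4 arrays ran from 5.03 to 5.06. An array annotation of 2013 names 20806 probe sets with 1 symbol and 855 with several, which were left out, and 53551 are unnamed here. Symbols were updated through the RefSeq table of GRCz12tu (1 symbol changed), which also gave synonyms and gene order; no source used here gives the array's build, so no coordinates are printed. Members and the 28 gene lists were chosen with earlier results of these data known. By the rule for named genes, any gene past a log2 difference of 1 was open to naming except those with clone-style names, which were counted; levels were given for the largest differences, and of each list a few further members. The steps were tested on simulated data. Python 3.11.15 and pandas 2.3.3 were used. The number of arrays limits the precision.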

Additional observations from a re-analysis of the deposited data

Results flagged for a closer look

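The genes below differed by 2-fold or more from wildtype in opposite directions in the double heterozygote and in a homozygote. Each value rests on 1 array, and the difference between the genotypes was not tested. The tubulin gene tubb4bl was higher in the double heterozygote by 1.05 and lower in eys-/- and lrp5-/-, at -1.87 and -1.64. Its further probe set, below the measured level, did not show this pattern. That probe set read 4.90 in the double heterozygote, 1.17 in eys-/-, 1.52 in lrp5-/- and 1.38 in wildtype. For mhc2daa, of MHC class II, the double heterozygote was higher by 2.31, and the difference was -1.41 in eys-/-. The clone-named gene zgc:103700 was higher by 1.61 in the double heterozygote and differed by -1.77 in eys-/-. The gene paqr3b was lower in the double heterozygote at -1.54 and in eys-/- at -3.44, and higher in lrp5-/- at 1.06. Its further probe set, below the measured level, differed by -0.001 in the double heterozygote.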

How the results depend on the processing

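No alternative reversed the direction of any of the 179 genes where it gave a value. The genes were chosen for their difference between the double heterozygote and wildtype arrays, and every alternative still used both arrays. This outcome was therefore largely set by the choice of genes. After quantile normalization of both arrays over again 174 of them stayed past 2-fold, after centring on the median 179, and after removal of the trend with level 173; six7, zbtb18, mycla and mybl1 were among those that did not, and 170 stayed past it under all 3. The mean of all probe sets per gene kept 168 and left tmx3a and paqr3b at -0.74 and -0.77. Counts of higher and lower genes moved to 408 and 235 at 1.5-fold, to 27 and 11 at 3-fold, and to 83 and 21 when eys-/-, lrp5-/- and wildtype were averaged as the comparator. The count of lower genes was 90 with no filter on level and 33 with both arrays above it. With that comparator the median of clock activators was -0.59, against -0.89 with wildtype alone. Medians of the other lists moved by less than 0.23 under every scaling, filter and probe set choice tried on them. The filter with both arrays above the level was not tried on list medians. No paired analysis was possible because there is 1 array per genotype. Readings near the measured level limit the size of differences of dim genes.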

Other observations

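Of the 11390 further probe sets that reached the measured level, unnamed or with several symbols, 195 read higher and 140 lower in the double heterozygote at the 2-fold threshold, so most probe sets past 2-fold are not described by gene here. Lens genes showed no difference past 2-fold: 0 of 35 measured were past it (median 0.0023), with lim2.2 at -0.84 the farthest out. Of 63 measured cytosolic ribosomal protein genes 0 were past 2-fold, with a median of -0.13 and a range of -0.47 to 0.13. Of 30 measured skeletal muscle genes 0 were past it, with mb at -0.93 and myl1 at 0.52. Of 22 measured visual cycle genes dhrs12la was the 1 past it, beside rdh8b at 0.83, lratb.2 at 0.74 and the isomerase rpe65a at 0.70.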
